A study of Mus musculus with 69 samples.

Results

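Eomes, Tbr1 and Insm1, which encode transcription factors of the glutamatergic lineage of the cerebral cortex, were followed cell by cell through the germinal layers and the cortical plate of the mouse forebrain at embryonic day 14. These 3 genes were chosen by name out of the 18194 genes that a probe set of the array measures alone. They are read by 5 of the 45101 probe sets: Eomes by 1435172_at and 1426001_at, Tbr1 by 1416711_at, and Insm1 by 1455865_at and 1421399_at. In GRCm38.p6, Eomes lies on chromosome 9 from 118478186 to 118486132, Tbr1 on chromosome 2 from 61802863 to 61814114, and Insm1 on chromosome 2 from 146221997 to 146225020.

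Each sample is the amplified cDNA of 1 cell, picked by hand from dissociated fragments of the dorsolateral cerebral wall of CD1 mice, an outbred strain, and hybridised to an Affymetrix array. Of 69 cells, 66 came from the ventricular and subventricular zones (VZ/SVZ), where progenitors divide, and 3 from the cortical plate (CP), where newborn neurons settle. No genetic change or treatment is given for either group. The sample titles carry a letter, A (7 cells), B (14), C (7), D (7), E (the 3 CP cells) or X (31), and the labels do not say what the letters mean or how they were given. If they were given from these arrays, differences between letters in these genes are not independent of that choice. No label names an animal or litter. Each source group therefore counts as 1 sample, every value describes these cells, and no test between groups was possible.

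Cortical excitatory neurons arise from radial glia, the apical progenitors at the ventricle, often by way of intermediate progenitors that leave the ventricular surface and divide in the SVZ. Pax6, a paired-box factor of radial glia, Eomes (also called Tbr2), a T-box factor of intermediate progenitors, and Tbr1, a T-box factor of early-born deep-layer neurons, are known to follow each other along this path. Insm1, a zinc-finger repressor with a SNAG domain that recruits histone-modifying corepressors, is known to promote the formation of intermediate progenitors and is found in newborn neuronal cells.

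The 250 bases before the transcript start that RefSeq's promoter table lists for Eomes and for Tbr1 are shown because the related T-box genes gave different patterns over the cells. They come from RefSeq (GRCm38.p6, plus strand for both), at chr9:118477939-118478188 for Eomes and chr2:61804203-61804452 for Tbr1. The listed start of Tbr1 lies inside the gene range given above, so its window does too, and that of Eomes lies just after the first base of the gene. Whether a longer transcript has an exon in the Tbr1 window is not given in the tables used here. Capitals mark the matches to 4 short motifs searched on both strands. These were the E-box CANNTG, which proneural factors read, the promoter element known as the box CCAAT, the core TAATTA that many homeodomain proteins read, and the core GGTGTG of the T-box site.
Eomes: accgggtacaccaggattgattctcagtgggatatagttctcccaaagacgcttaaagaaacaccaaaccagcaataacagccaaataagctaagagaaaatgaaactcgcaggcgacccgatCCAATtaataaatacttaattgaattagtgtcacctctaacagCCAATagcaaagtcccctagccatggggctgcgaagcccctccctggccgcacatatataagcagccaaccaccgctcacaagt
Tbr1: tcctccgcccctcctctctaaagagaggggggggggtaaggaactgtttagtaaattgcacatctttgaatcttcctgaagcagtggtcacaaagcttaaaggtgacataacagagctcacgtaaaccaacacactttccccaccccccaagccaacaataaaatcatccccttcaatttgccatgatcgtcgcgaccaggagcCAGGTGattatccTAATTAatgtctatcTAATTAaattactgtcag
The Eomes window held CCAAT at 127 and 84 bases before the listed start and no CANNTG. The Tbr1 window held 1 CANNTG at 46 bases before the listed start, and it held TAATTA at 33 and 18. Neither window held GGTGTG, and no marked match overlapped another. Over 32851 upstream windows of the same length, from 27025 genes, CANNTG occurred in 66.2%, CCAAT in 33.8%, GGTGTG in 16.3% and TAATTA in 4.84%. These matches describe the letters of the windows and no more.

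A gene was counted as detected in a cell where its signal was above 50, a value that 18% of all signals exceeded and none of the 207 signals of the TrpnX control probe sets, which reached 8.64. Levels are means of log2 signal with values under 50 set to 50 (5.64 on the log2 scale), with the SD over cells. Between 3713 and 5715 genes were detected per cell, with medians by letter from 3904 (E) to 4944 (A). The phe spike RNA, added at 20 copies per cell, read 8.66 ± 1.26 (log2, SD, n = 69 cells) and the thr RNA, at 5 copies, 6.21 ± 0.81, so an RNA at a few copies can be missed. Of the spike RNAs, phe and lys read lower in the CP than in the VZ/SVZ cells: phe 7.64 ± 1.26 against 8.70 ± 1.25 and lys 12.33 ± 0.14 against 12.65 ± 0.20. The dap RNA did not, with 9.08 ± 0.20 in the CP and 9.01 ± 0.67 in the VZ/SVZ. The thr RNA was at the floor in all 3 CP cells and read 6.24 ± 0.82 in the VZ/SVZ, where its median was also at the floor. The part of these spike differences in the low Eomes and Insm1 signals of the CP was not tested. For the main probe sets, the signals had a gap around the threshold. The cells just under and just over 50 read 40.8 and 245 for Eomes, 12.1 and 81.4 for Tbr1, and 34.6 and 91.1 for Insm1.

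Eomes was detected in 28 of 66 VZ/SVZ cells (42.4%, exact Clopper-Pearson 95% interval 30.3% to 55.2%, which covers counting error only) and in 0 of 3 CP cells (0% to 70.8%). Its signals in VZ/SVZ cells had a lowest value of 0.88, a median of 14.5 and a highest value of 4551. In the CP they were 7.94, 2.67 and 5.02. The CP cells thus lay within the range of the VZ/SVZ cells in which Eomes was not detected. The VZ/SVZ mean was at least 4.20-fold above that of the CP, a lower bound from the VZ/SVZ geometric mean divided by 50, and at least 2.52-fold with 1426001_at. With the threshold at the 95th percentile of the TrpnX signals, 6.26, Eomes was counted in 69.7% of VZ/SVZ cells.

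By letter, Eomes was detected in 13 of 14 B cells, 7 of 7 C cells and 8 of 31 X cells, and in no A, D or E cell. The B cells read from 1.96, in B-17F, to 4551, with a median of 1897. The C cells read 3498, 791, 2098, 3812, 1057, 2279 and 1403. The A cells read from 0.93 to 18.3, with a median of 4.76, and the D cells read 2.43, 15.5, 7.70, 10.4, 4.67, 0.88 and 4.75. Every C cell was therefore above every A and every D cell. Mean levels were 10.46 ± 1.63 in B, 10.86 ± 0.85 in C and 6.70 ± 1.92 in X, and all A, D and E cells were at the floor. The order of the levels was C, B, X and then the letters at the floor, with B and C closer to each other (a difference of 0.40) than the SD within either.

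Tbr1 was detected in 23 of 66 VZ/SVZ cells (34.8%, 23.5% to 47.6%) and in all 3 CP cells (29.2% to 100%). Signals in the VZ/SVZ ran from 0.19 through a median of 3.89 to 1308. The CP cells read 1394, 803 and 917. Of these, the highest was above every VZ/SVZ cell and the other two lay inside the VZ/SVZ range. Mean levels were 9.98 ± 0.41 in the CP and 6.77 ± 1.68 in the VZ/SVZ, a difference of 3.21 on the log2 scale or 9.27-fold. The size depends on the floor, since it was 5.14 with a floor of 6.26 and 6.58 with none.

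By letter, Tbr1 was detected in 0 of 7 A, 4 of 14 B, 5 of 7 C, 7 of 7 D, 3 of 3 E and 7 of 31 X cells. The A cells read from 0.23 to 4.87, with a median of 2.35, and the B cells from 0.37 to 1133, with a median of 5.13. The C cells, in the order used for Eomes, read 0.28, 6.33, 776, 241, 841, 377 and 81.4. The D cells read 146, 487, 281, 151, 999.7, 540 and 206. Every D cell was above every A cell, while B, C and D overlapped. Mean levels were 6.69 ± 1.77 in B, 7.63 ± 1.77 in C, 8.32 ± 1.04 in D, 9.98 ± 0.41 in E and 6.51 ± 1.68 in X, with A at the floor. Neighbours from X to D in this order (X, B, C, D) differed by less than the larger of their SDs, and E was 1.66 above D, with overlapping cells.

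Insm1 was the most widely detected of the 3 genes, in 57 of 66 VZ/SVZ cells (86.4%, 75.7% to 93.6%) and 2 of 3 CP cells (9.43% to 99.2%). Signals in the VZ/SVZ ran from 1.12 through a median of 935 to 4277. The CP cells read 140, 91.1 and 34.6. All 3 lay under the lowest VZ/SVZ cell in which Insm1 was detected, at 152, and above the cells in which it was not. Mean levels were 9.49 ± 1.96 in the VZ/SVZ and 6.43 ± 0.75 in the CP, a difference of −3.07 or 8.37-fold. This size depends on the scaling of the cells, since it was −2.58 with the same trimmed mean in each cell and −2.09 after quantile normalization. The second probe set, 1421399_at, read 41.7, 11.1 and 2.10 in the CP cells and thus detected Insm1 in 0 of 3. With it the VZ/SVZ was at least 14.3-fold above the CP.

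By letter, Insm1 was detected in 4 of 7 A, 14 of 14 B, 7 of 7 C, 7 of 7 D, 2 of 3 E and 25 of 31 X cells. The A cells read from 2.69 to 1182, with a median of 164, and the B cells from 393 to 4225, with a median of 2389. The C cells read 2270, 2996, 2289, 4170, 1395, 2059 and 2014, and the D cells 1650, 1254, 589, 369, 2438, 1314 and 762. The D cells overlapped the C cells, and every D cell was above every E cell. Mean levels were 11.19 ± 0.49 in C, 10.99 ± 0.98 in B, 9.99 ± 0.93 in D, 8.83 ± 1.92 in X, 7.27 ± 1.75 in A and 6.43 ± 0.75 in E. Neighbours in this order differed by less than the larger of their SDs, except B and D, which differed by about that SD.

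**Figure D1:**
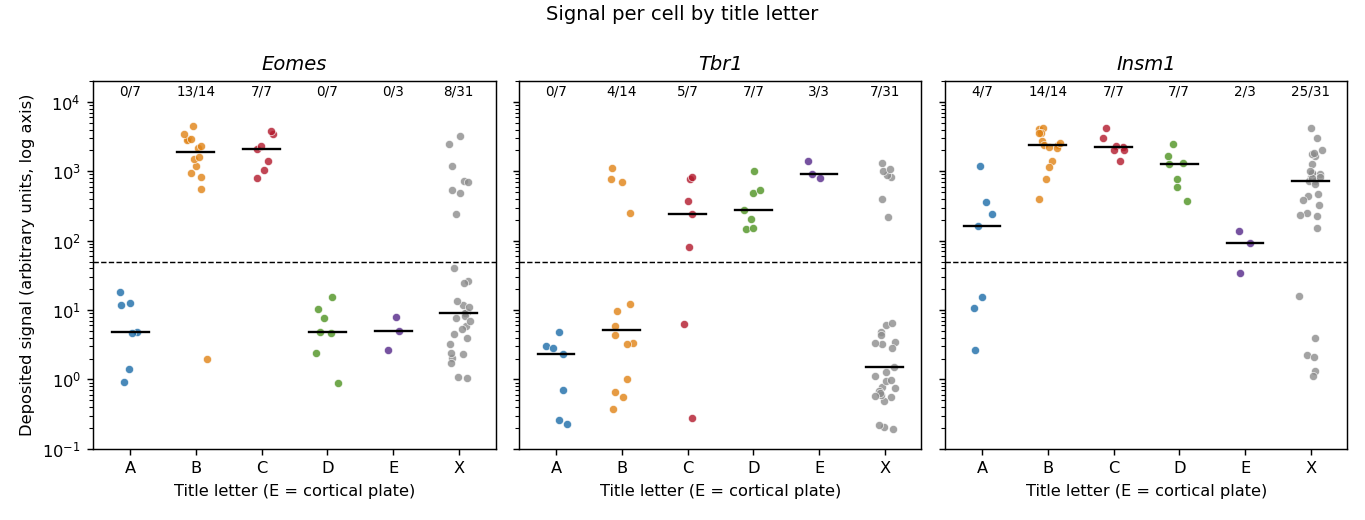
Deposited signal (log axis) of Eomes, Tbr1 and Insm1, each from its main probe set, in each of 69 cells by title letter. Points are cells, black bars medians, the dashed line the threshold of 50, and the fractions the cells above it. Eomes is above 50 in 13 of 14 B, all C and some X cells. Tbr1 is above 50 in all D and E cells and in some B, C and X cells, and Insm1 in cells of every letter.

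A difference of at least 1 log2 unit was used as a rule of size, not a test, over 11215 genes detected in at least 1 cell. Between the CP and the VZ/SVZ, Tbr1 was higher by this rule, as were 8.22% of all genes tested, and Eomes and Insm1 were lower, as were 20.8%. From A to B all 3 genes were higher, against 5.95% of genes (8.4% were lower), Eomes by at least 28.1-fold, Insm1 by 3.71 log2 units and Tbr1 by at least 2.06-fold. From B to C none of the 3 passed the rule, which 4.75% of genes passed upward and 5.11% downward. The differences were 0.40 for Eomes, 0.94 for Tbr1 and 0.20 for Insm1.

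From C to D, Eomes was lower by at least 37.0-fold (at least 12.2-fold with 1426001_at) and Insm1 by 1.20 log2 units, against 14.7% of genes lower. Tbr1 was higher by 0.69, short of the rule that 8.16% of genes passed upward. Eomes was also among the 0.785% of genes that were lower with no overlap of C and D cells, although 1426001_at, which missed the C cell C-11H, gave an overlap. From D to E, Tbr1 was higher by 1.66, as were 8.53% of genes by the rule, and Insm1 was lower by 3.56 or 11.8-fold, as were 13.5%. Insm1 was one of the 0.918% of genes that were lower without overlap there, with either of its probe sets, and Eomes was at the floor in both letters. The number that follows the letter in the titles is 18 in 5 of the 7 D cells and in no other cell, and 19 in 2 of the 3 E cells and in no other. What that number stands for is not given in the labels used here, and its part in these differences cannot be told apart from the letters.

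The 2 probe sets of a gene did not always detect it in the same cells. For Eomes, 22 cells were above 50 with both, 6 with 1435172_at alone (C-11H and the X cells 10C, 16O, 20O, 21J and 5i), 1 with 1426001_at alone (A-15K) and 40 with neither. The correlation of their floored log2 signals was 0.84 over 69 cells, but −0.04 over the 22 cells above 50 with both. Detection of Eomes was thus shared between the probe sets in most cells, and its level among expressing cells was not. For Insm1, 56 cells were above 50 with both, 3 with 1455865_at alone, 1 with 1421399_at alone and 9 with neither, and the correlation was 0.92 over all cells and 0.89 over those 56. Tbr1 has 1 probe set, so no such comparison was made.

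**Figure D2:**
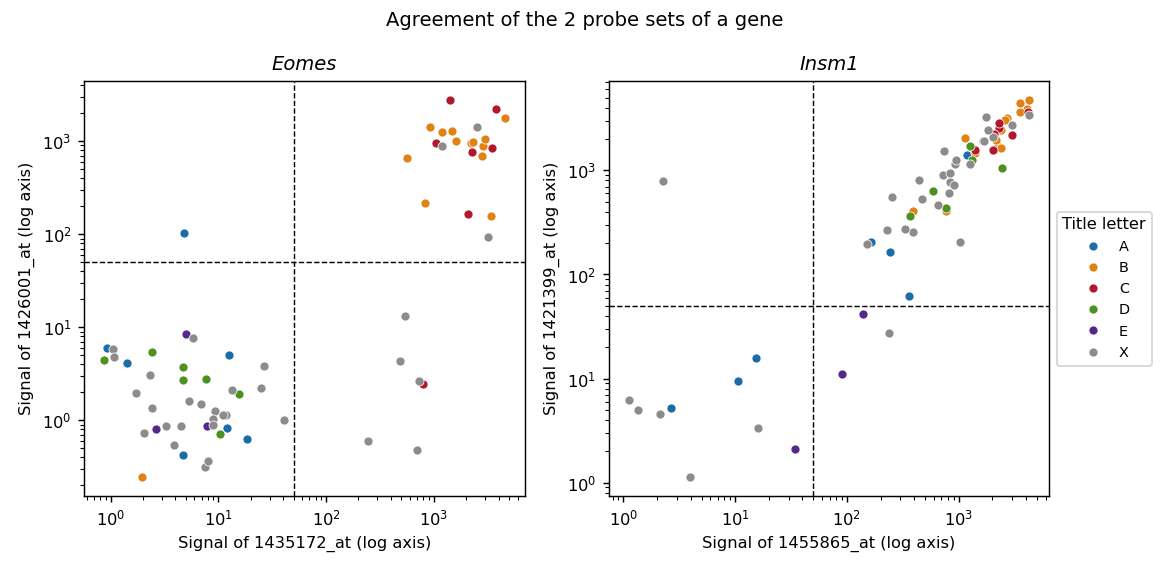
Signal of the second probe set against that of the main probe set (both log axes) for Eomes and Insm1, 1 point per cell coloured by title letter, with dashed lines at 50. The Insm1 cells above both lines follow 1 diagonal, while the 22 such Eomes cells form a cloud.

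Detection of the 3 genes in the same cell gave 7 of the 8 possible combinations. All 3 were above 50 in 12 of 69 cells (17.4%, 9.32% to 28.4%), Eomes and Insm1 in 15, Tbr1 and Insm1 in 13, and Insm1 alone in 19. Eomes alone was found in 1 cell (X-16O), Tbr1 alone in 1 (the CP cell E-19J) and none of the 3 in 8. Eomes and Tbr1 without Insm1 occurred in 0 of 69 cells (up to 5.21%). The single cell with Eomes and no Insm1 depends on the probe sets: in X-16O the main pair read 245 for Eomes and 2.27 for Insm1, and the second pair 0.61 and 792.

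Eomes and Tbr1 overlapped in part. Among VZ/SVZ cells, Tbr1 was detected in 12 of 28 cells with Eomes (42.9%, 24.5% to 62.8%) and in 11 of 38 without (28.9%, 15.4% to 45.9%), and these intervals overlap. Eomes was in turn detected in 12 of 23 cells with Tbr1 (52.2%, 30.6% to 73.2%). Insm1 accompanied both, in 27 of 28 cells with Eomes and 23 of 23 with Tbr1, against 30 of 38 cells without Eomes and 34 of 43 without Tbr1. Of the 12 cells with all 3, 4 were B, 5 were C and 3 were X cells. Within letter X alone, Eomes was detected in 8 cells and 3 of these held Tbr1. At a threshold of 6.26, 22 cells held Eomes and Tbr1, and 43 held Eomes and Insm1.

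Over the VZ/SVZ cells, floored log2 levels correlated at 0.59 for Eomes and Insm1, 0.22 for Eomes and Tbr1 and 0.36 for Tbr1 and Insm1 (Pearson, n = 66 cells, given as a description of cells that share a source and may share animals). In the 27 cells above 50 for both Eomes and Insm1 it was 0.47, and in the 12 above 50 for both Eomes and Tbr1 0.06. For Eomes these rest on 1435172_at, whose levels correlated with those of 1426001_at at −0.04 in the cells above 50 with both probe sets. Within letter X the values were 0.34, 0.34 and 0.47 (n = 31).

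**Figure D3:**
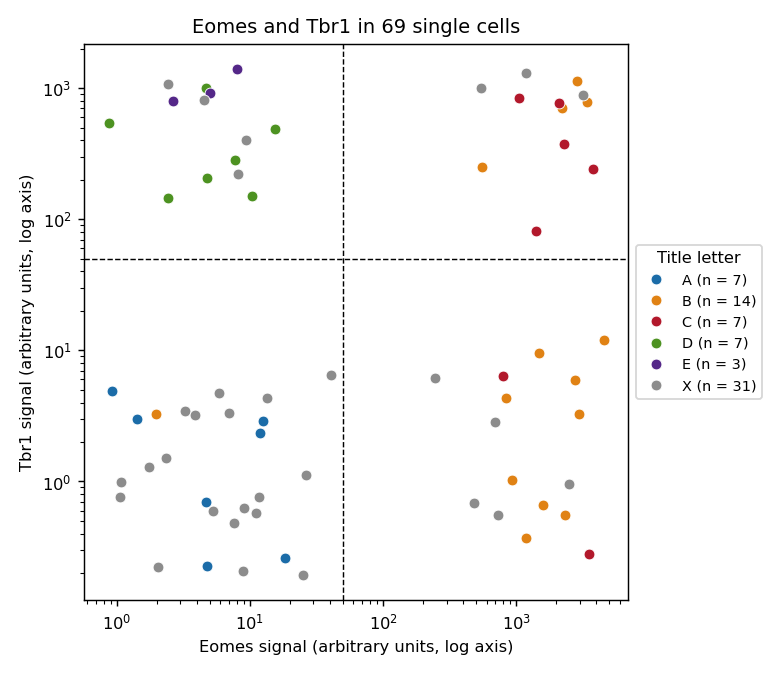
Tbr1 signal against Eomes signal (both log axes) in 69 cells coloured by title letter, with dashed lines at 50. The upper right quadrant holds the 12 cells with both genes (4 B, 5 C, 3 X), and the upper left the 14 cells with Tbr1 and no Eomes, among them all D and E cells.

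The cells were then split into 27 with neither Eomes nor Tbr1, 16 with Eomes only, 12 with both and 14 with Tbr1 only, and other genes were read in each. Genes of radial glia were found in all or most cells with neither gene. Pax6 was detected in 27 of 27, 16 of 16, 11 of 12 and 2 of 14 cells in that order, and Sox2, a factor that maintains neural progenitors, in 27, 15, 6 and 1. Hes1, a Notch effector that represses neuronal differentiation, was detected in 16, 2, 0 and 1. Pax6 levels were 10.99 ± 0.50, 9.93 ± 1.55, 8.88 ± 1.73 and 6.26 ± 1.64. Pax6 was thus still detected in 11 of the 12 cells that held both T-box genes, with levels whose SDs overlapped those of cells with Eomes only.

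Neurog2, a proneural factor, was detected in 21 of 27, 14 of 16, 12 of 12 and 6 of 14 cells, and Gadd45g, a growth arrest and stress gene, in 3, 13, 11 and 1. Neurod1, a neuronal differentiation factor downstream of proneural genes, was detected in 0 of 27 cells with neither gene (up to 12.8%), 4 of 16 with Eomes only (25%, 7.27% to 52.4%), 10 of 12 with both (83.3%, 51.6% to 97.9%) and 3 of 14 with Tbr1 only (21.4%, 4.66% to 50.8%). Its share was highest in the cells holding both T-box genes. Btg2, an antiproliferative gene of neurogenic divisions, was detected in 20, 12, 11 and 3, and Neurod6, a factor of differentiating pyramidal neurons, in 4, 12, 12 and 14.

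Genes of dividing cells separated the cells with both T-box genes from those with Tbr1 only. Mki67, a marker of cycling cells, was detected in 27 of 27, 16 of 16, 11 of 12 and 1 of 14 cells, and Top2a, a topoisomerase of dividing cells, in 27, 16, 11 and 2. The single cell with Tbr1 only and Mki67 was X-24N, with 221 for Tbr1, 3145 for Mki67 and 2227 for Pax6. Neuronal genes ran the other way. Dcx, a microtubule protein of migrating neurons, was detected in 5, 12, 12 and 13 cells, Tubb3, a neuronal tubulin, in 8, 7, 10 and 13, and Bcl11b, a factor of subcerebral projection neurons, in 2, 2, 7 and 11. Stmn2, a microtubule regulator of growing axons, was detected in 1 of 27, 0 of 16, 1 of 12 and 13 of 14 cells.

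Insm1 levels in these cells were 8.03 ± 1.87 with neither gene, 10.66 ± 1.61 with Eomes only, 10.78 ± 0.89 with both and 9.24 ± 1.73 with Tbr1 only. Cells with neither ranged from 1.12 to 4277, the highest Insm1 signal of all cells (X-11M). The median number of genes detected was 4944, 4563, 4672 and 4161, and the median phe level 8.77, 8.99, 9.19 and 8.78, and their part in these shares was not tested. Letters were spread unevenly: cells with neither were 7 A, 1 B and 19 X, those with Eomes only 9 B, 2 C and 5 X, and those with Tbr1 only 7 D, 3 E and 4 X. Within letter X, Neurod1 was detected in 0 of 19, 0 of 5, 3 of 3 and 1 of 4 cells, Mki67 in 19, 5, 3 and 1, and Neurog2 in 19 of 19, 3 of 5, 3 of 3 and 3 of 4. These X classes rest on 1435172_at. It alone detected Eomes in X-10C, X-16O, X-20O and X-21J, counted as Eomes only, and in X-5i, counted with both.

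**Figure D4:**
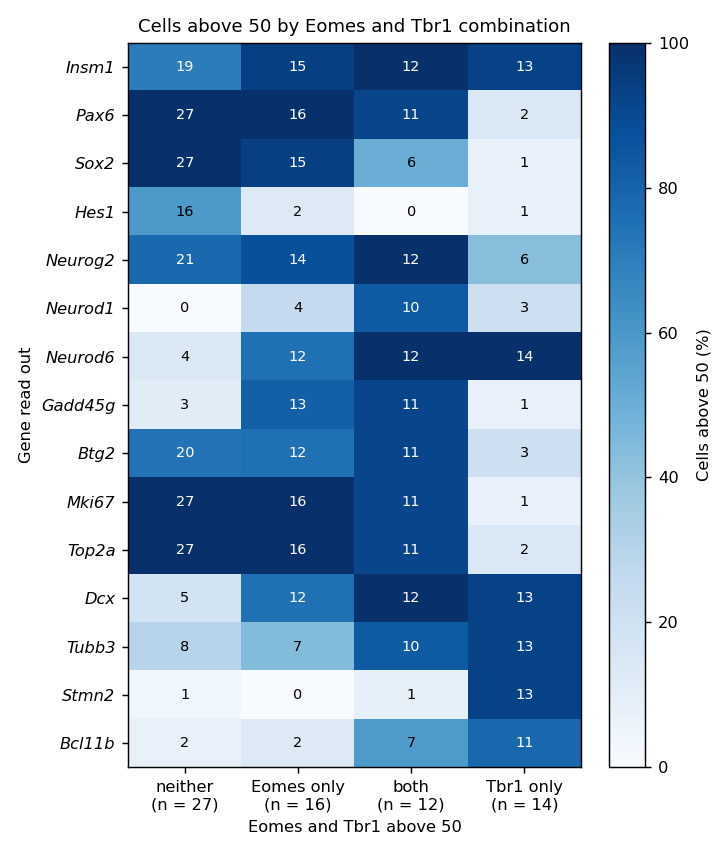
Share of cells above 50 (shading, percent) for 15 genes, Insm1 included, in the cells with neither Eomes nor Tbr1 (27), Eomes only (16), both (12) and Tbr1 only (14). The number in each box is the count of cells: Mki67 and Top2a fill the first 3 columns, Stmn2 the last, and Neurod1 is found in 10 of 12 cells with both.

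Markers of cell types outside this lineage were above 50 in some VZ/SVZ cells. No microglial (0 of 7) or erythroid (0 of 5) marker was above 50 in any cell, and in the CP cells no marker of the 7 other lists was. In the interneuron list, 4 of 9 markers (Gad2, Dlx1, Dlx6os1 and Sst) were above 50 in no cell, and the summed signal ran from 15.2 to 1345 in the VZ/SVZ and from 26.5 to 44 in the CP. The cell X-5i, which held Eomes, Tbr1 and Insm1, also read 1043 for Dlx2, 139 for Lhx6 and 93.8 for Gad1. Sp8, a zinc-finger factor of this list, was above 50 in 13 cells, of which 11 held neither T-box gene, and was highest in X-22M at 331. In the Cajal-Retzius list 5 of 8 markers (Trp73, Lhx5, Ebf2, Calb2 and Lhx1) were above 50 in no cell. The summed signal ran from 27.3 to 1364 (median 40.6) in the cells with both T-box genes and from 24.6 to 49.5 (median 33.1) in those with Tbr1 only. With Eomes only it ran from 17.4 to 220 (median 33.5), and with neither from 15.8 to 60.7 (median 32.9). Reln, which encodes an extracellular protein secreted by Cajal-Retzius cells, was above 50 in 4 cells, all with both Eomes and Tbr1, and was highest in B-16J at 1335. Each of the other markers of this list above 50 was so in 1 cell: B-6E, with Eomes only, at 187, and C-20P, with both, at 345. In the list of pericyte and meningeal markers 3 of 7 (Col1a1, Lum and Rgs5) were above 50 in no cell, and the summed signal ran from 17.1 to 705 in the VZ/SVZ and from 31.2 to 33.1 in the CP. Dcn, a proteoglycan gene of connective tissue, was above 50 in 3 cells and highest in X-20O at 601. Pdgfrb, a receptor gene of pericytes, was above 50 in 2 cells and highest in X-16O at 266. Both of these cells were counted as cells with Eomes only, and in both Eomes was detected with 1435172_at alone. Col1a2, a collagen gene, was above 50 in 2 cells with neither T-box gene, and Foxc1, a forkhead factor of the meninges, in C-23J, which held both, at 401. The part of these cells in the counts was not tested beyond this.

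The cells were ordered by the mean level of 19 neuronal genes minus that of 20 apical progenitor genes, with the 3 genes left out of both lists, and cut into 3 ranges of 23 cells. A range is a stretch of this score and not a cell type. Eomes was detected in 4, 14 and 10 cells of the first, middle and last range, Tbr1 in 2, 3 and 21, and Insm1 in 19, 18 and 22. The cells with Eomes lay between rank 13 and rank 57, with a median of 42.5, and none of the last 12 cells held it. The median rank was 56.5 for cells with Tbr1 and 39 for cells with Insm1.

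By combination, the median rank was 16 for cells with neither T-box gene, 37.5 for Eomes only, 48.5 for both and 62.5 for Tbr1 only. These stretches overlapped, since cells with Eomes only reached from 13 to 51 and cells with both from 20 to 57. Mean Eomes levels were 6.37 ± 1.67, 8.67 ± 2.65 and 7.83 ± 2.62 over the 3 ranges, and mean Tbr1 levels 5.84 ± 0.65, 6.07 ± 1.16 and 8.81 ± 1.48. Insm1 had means of 8.64 ± 1.75, 9.47 ± 2.45 and 9.97 ± 1.60, which differ by less than the SD. Over 69 cells the correlation with the score was 0.78 for Tbr1, 0.27 for Insm1 and 0.10 for Eomes, and over the 66 VZ/SVZ cells 0.74, 0.45 and 0.19. The near-zero value for Eomes goes with its high cells lying in the middle of the order. The CP cells, at ranks 66, 67 and 69, had the 3 lowest Insm1 signals of the last range. Without the X cells the correlation of Eomes with the score was −0.19.

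**Figure D5:**
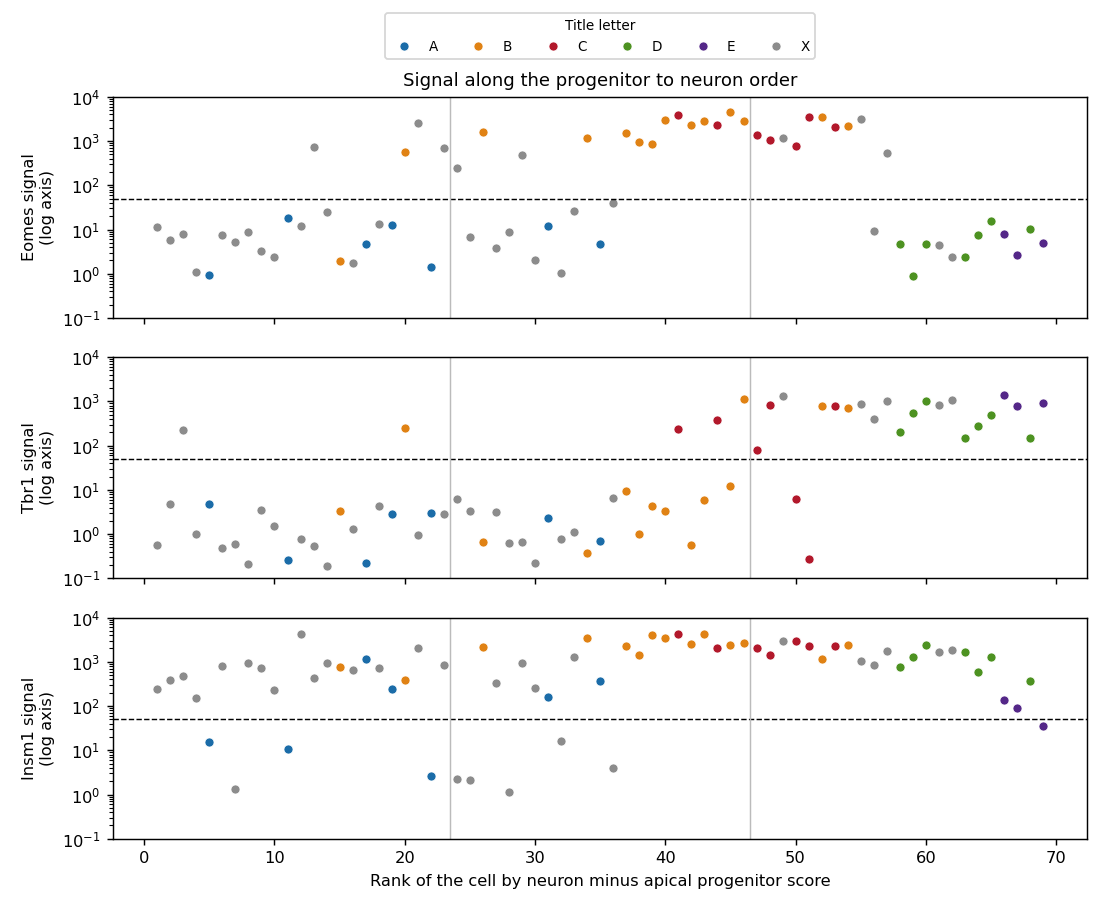
Signal (log axis) of each gene against the rank of the cell in the neuron minus apical progenitor order, 69 cells coloured by title letter, with the dashed line at 50 and grey lines between the 3 ranges of 23 cells. Eomes is above 50 between ranks 13 and 57, Tbr1 in 21 of the last 23 cells, and Insm1 in 19, 18 and 22 cells of the 3 ranges.

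Many other genes of the intermediate progenitor program were higher in B than in A, and many were lower in D than in C, as Eomes was. The counts below need not hold the same genes. Of 22 genes tested of 24 listed, 13 were higher and 1 lower in B than in A, with a median difference of 1.51 against 0 over all genes. By the rule, 5.95% of all genes were higher there and 8.4% lower. Neurog2 was 5.89 higher, Gadd45g at least 4.39 higher, Mfng, a glycosyltransferase that modifies Notch, 4.03 and Hes6, an antagonist of Hes1, 3.84. From B to C, 5 were higher and 1 lower (median 0.29), against 4.75% and 5.11% of all genes. Sstr2, a somatostatin receptor, was 2.77 and Neurod1 1.82 higher, while Btg2 was 2.20 lower. From C to D, 2 were higher and 12 lower (median −1.30), against 8.16% and 14.7% of all genes. The lower ones were led by Neurog2 (−4.96), the TEAD factor Tead2 (−4.33) and Gadd45g (at least 16.4-fold lower). Between the CP and the VZ/SVZ, 0 were higher and 7 lower, against 20.8% of all genes lower, with a median of −0.57 against −0.20 over all genes. Between the last and the first range of the order, 11 were higher and 1 lower, with a median of 0.97 against −0.08 over all genes, of which 5.72% were higher and 11.4% lower by the rule. Lzts1, known in the detachment of differentiating cells from the ventricle, was 3.41 higher there.

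Part of the list of early projection neuron factors and reported Tbr1 targets was higher in each comparison made. These include B to C and C to D, where Tbr1 itself did not pass the rule. Of 16 tested of 18 listed, 10 were higher and 1 lower in the CP (median 1.65, against −0.20 over all genes, of which 8.22% were higher): Bcl11b by 4.35, Sox5, a regulator of deep-layer neuron identity, by 3.68, Fezf2, a selector of subcerebral projection neurons, by 2.90 and Neurod2, a neuronal differentiation factor, by 2.79. From A to B 3 were higher (5.95% of all genes), from B to C 4 (4.75%) and from C to D 5 (8.16%), with at most 1 lower in each. The list medians there were 0.24, 0.26 and 0.03, against 0 over all genes. From D to E, 6 were higher and 1 lower (median 0.25, against 0 over all genes, of which 8.53% were higher). The 6 included Bcl11b (2.91), Fezf2 (2.59) and Tle4, a corepressor gene of deep-layer neurons (at least 7.32-fold). Between the last and the first range of the order, 5 of the 15 genes that did not build the order were higher and none lower (median 0.65, against −0.08 over all genes, of which 5.72% were higher), with Neurod2 4.92 and Neurod6 4.85 higher. Not every listed gene followed Tbr1. Over the VZ/SVZ cells, Pearson correlations with Tbr1 were 0.32 for Auts2, 0.09 for Cask and −0.23 for Grin2b, against 0.58 for Bcl11b and 0.56 for Sox5. Reln was above 50 in no CP cell, although the 4 cells that held it also held Tbr1.

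The T-box family held few other detected members. Of 15 other family genes listed, Mga and Tbx6 were the 2 tested, and neither passed the rule in any comparison made. Mga, which encodes a large dual-specificity factor, was detected in 23 of 66 VZ/SVZ cells and no CP cell, and Tbx6, a factor of paraxial mesoderm, in 1 VZ/SVZ cell.

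Among relatives of Insm1 and genes of the corepressor complexes it can recruit, 8 of 13 were tested. From A to B, where Insm1 was 3.71 higher, Kdm1a, the lysine demethylase LSD1, was 2.89 higher and Rcor2, a CoREST subunit, 1.42, and none was lower by the rule. Over all genes, 5.95% were higher there and 8.4% lower. From B to C none passed the rule, from C to D 1 was lower and from D to E 3 were, against 14.7% and 13.5% of all genes, and none was higher. In the CP, where Insm1 was lower, 3 of the 8 were lower and none higher, against 20.8% of all genes lower: Rcor1 by at least 8.44-fold, the deacetylase gene Hdac1 by 2.88 log2 units and Hmg20b, of the same complex, by at least 3.13-fold. Kdm1a was not lower there, with 10.91 in the CP and 10.08 in the VZ/SVZ. Between the last and the first range of the order, Kdm1a was 2.05 higher, while Hdac1 (−1.43) and Rest (−1.11), the repressor of neuronal genes, were lower, with a median of −0.18 over the list. Over all genes, 5.72% were higher in that comparison and 11.4% lower.

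Most cell division genes were lower in D than in C. Of 11 tested, 10 were lower there, with a median of −4.38 (14.7% of all genes were lower), and all 11 were lower in the CP than in the VZ/SVZ (median −3.76, 20.8% of all genes). From A to B, where Eomes was higher, 2 of the 11 were higher and 2 lower (median 0.14), against 5.95% and 8.4% of all genes. Between the last and the first range of the order 9 were lower and none higher (median −3.19), against 11.4% of all genes lower. From B to C, where Eomes passed the rule in neither direction, 1 of the 11 was lower and none higher, against 5.11% and 4.75% of all genes.

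The genes whose levels followed each member most closely were ranked by Pearson correlation over the 66 VZ/SVZ cells, among genes detected in at least 5 of them. For Eomes they were Mfng (0.86), Gadd45g (0.83), Serping1, the C1 inhibitor gene (0.72), Hes6 (0.72), Myt1, a zinc-finger factor of neural differentiation (0.71), Neurog2 (0.66), Cemip2, a cell-surface hyaluronidase gene (0.66), and Sdc3, a syndecan (0.63). Mfng was detected in 24 of 28 cells with Eomes and 5 of 38 without, and Serping1 in 17 and 2. Insm1 stood 12th of 9163 genes in this list and Tbr1 714th. The most opposite genes were Dab1, the Reelin adaptor (−0.67), the growth factor receptor gene Fgfr1 (−0.67), Hmgcs1, of cholesterol synthesis (−0.64), and Smarcd3, a chromatin remodelling subunit (−0.61). Dab1 was detected in 6 of 28 cells with Eomes and 36 of 38 without. This ranking rests on 1435172_at and was not repeated with 1426001_at alone. The levels of these probe sets correlated at −0.04 over the 22 cells above 50 with both. With the mean of all probe sets, 6 of the 8 closest genes were kept.

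For Tbr1 the closest were Celsr3, a cadherin of axon guidance (0.84), Mllt11 (0.77), the kinesin gene Kif21b (0.76), Neurod2 (0.75), Tubb3 (0.74), Neurod6 (0.73), Cyria (0.72) and Snap25, of synaptic vesicle fusion (0.71). Celsr3 was detected in 19 of 23 cells with Tbr1, in 4 of 43 without and in all 3 CP cells. The most opposite were Ddah1 (−0.71), Gas1, a Hedgehog coreceptor gene (−0.71), Notch1 (−0.69) and Etv5, an ETS factor of the growth factor response (−0.69). Without the X cells, 3 of these 8 closest genes were kept among the closest 8.

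For Insm1 the closest were Plxna2, a semaphorin receptor gene (0.70), Lzts1 (0.66), Nsg2 (0.64), AI504432 (0.62), Mgat5b (0.61), Mfng (0.60), Cited2 (0.60) and Dennd11 (0.60). Plxna2 was detected in 50 of 57 cells with Insm1 and 1 of 9 without. Eomes stood 10th of 9163 genes. The most opposite were Igfbp5 (−0.67), Fam167a (−0.67), Vcam1, a cell adhesion molecule (−0.65), and Ndrg2 (−0.64), and each was detected in 8 or 9 of the 9 VZ/SVZ cells without Insm1. Between 4 and 5 of the 8 closest genes were kept with a floor of 100, the mean of all probe sets, no floor, Spearman's correlation or without the X cells.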

How the data were processed

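The deposited values are array intensities on a linear scale, 1 per probe set and cell, which the authors computed with MAS5 (version unstated), per the submitters' processing notes. The sources used here do not give the scaling target, and means trimmed by 2% at either end ran from 50.1 to 142 over cells, so differences of scale between cells remain. Of 45101 probe sets, the platform annotation gives 34958 1 gene, 932 several and 9211 none. A gene with several probe sets was represented by the one brightest on average (mean log2, 69 cells), and both probe sets of Eomes and Insm1 are reported. Values under 50 were set to 50 before log2. The CP group follows the source label, since the description of those 3 cells names the VZ/SVZ. Shares carry exact Clopper-Pearson 95% intervals. No doublet caller was run.

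Genes named are the 3 genes, 14 fixed read-outs, the 8 most like and 4 most opposite genes of each, up to 4 genes per list and comparison by absolute difference, and markers of other cell types not above 50. The text describes a part of the genes that this rule names, and 1 of them is not reported here. The markers of other cell types that were above 50 in single cells, and the cells named, were chosen after their values were seen. So were Auts2, Cask and Grin2b. Of 171 list genes, 161 have a probe set. The 3 genes, the lists and the threshold were chosen with earlier results of these data known. Alternatives tried were thresholds and floors, probe set choices, scalings, leaving out cells, and Spearman's correlation. The scripts were tested on simulated data. Python 3.11.15, numpy 2.4.6, pandas 2.3.3 and scipy 1.17.1 were used.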

Additional observations from a re-analysis of the deposited data

Results flagged for a closer look

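In 1 cell of letter A, A-15K, the second probe sets of 2 genes stood apart from the other 6 A cells, by Dixon's criterion for the gap to the nearest cell. For Eomes, 1426001_at read 103 in A-15K, against 0.43 to 5.99 in the others, while 1435172_at read 4.76 there. For Insm1, 1421399_at read 1404, against 5.25 to 205 in the others, and 1455865_at read 1182 in the same cell. Both gaps were read with values under 50 set to 50. For Eomes this puts the other 6 cells at 1 value, so the gap fills the whole range by construction. For Insm1 it raises the lowest A cells to 50, which shortens the range that the gap is set against (0.58 of it). Of 11 groups examined 2 were singled out in this way. Chance singles out about 1 in 20 where values are not floored, a rate that does not hold for either of these gaps.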

How the results depend on the processing

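Over 15 results, 144 alternatives were computed, of which 130 kept direction and stayed within a margin of size, 13 moved beyond it and 1 reversed. Staying within the margin does not mean an equal size. The CP minus VZ/SVZ difference of Insm1, −3.07, was counted as kept at −2.09 after quantile normalization. Some alternatives could not change a result, such as the mean of probe sets for the CP minus VZ/SVZ difference of Tbr1, which has 1 probe set. The correlation of Eomes with the order, 0.10, was −0.19 without the X cells, and that of Insm1, 0.27, was 0.049. The share of VZ/SVZ cells with Eomes, 42.4%, was 57.1% without the X cells and 69.7% with the threshold at the 95th percentile of TrpnX (6.26). At that threshold 43 cells in place of 27 held Eomes and Insm1, and 22 in place of 12 Eomes and Tbr1. The CP minus VZ/SVZ difference of Tbr1, 3.21, was 5.14 at that floor and 6.58 with none. Of the 8 genes closest to Insm1, 5 were kept with a floor of 100, 4 with the mean of probe sets, 5 without the X cells, 5 with no floor and 4 with Spearman's correlation, and of those closest to Tbr1, 3 without the X cells. The causes were not tested, except that a lower threshold counts more cells by construction. Leaving out 1 CP cell moved none of the results for which it was computed beyond the margin. For the Eomes difference it could not, since all 3 CP cells were at the floor. Reading the second probe sets (chosen after seeing the data) also moved none of the results for which it was computed. Neither was computed for the closest genes, and Tbr1 has no second probe set. No paired analysis was possible because the labels name no animal and do not say what the title numbers stand for. No test between groups was made. RNAs present in few copies can read under 50, so a cell without signal may hold the RNA.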

Other observations

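X-24N stood at rank 3 of the order, at the apical progenitor end of the score, and yet read 221 for Tbr1, with 471 for Insm1 and 8.08 for Eomes. It read 3145 for Mki67, 950 for Sox2, 320 for Hes1 and 1843 for Neurog2, and 8.72 for Dcx and 1.41 for Stmn2. B-17F was the only B cell without Eomes, at 1.96 and 0.24 with the 2 probe sets.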
